A study of Arabidopsis thaliana with 16 samples.

Results

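The 9 loci described here are the sodium transport and Salt Overly Sensitive (SOS) pathway genes of Arabidopsis thaliana, chosen by name and locus number and not by any measured value. They are SOS1 (AT2G01980), SOS2 (AT5G35410), SOS3 (AT5G24270), CBL10 (AT4G33000), HKT1 (AT4G10310), NHX1 (AT5G27150), NHX2 (AT3G05030), NHX5 (AT1G54370) and NHX6 (AT1G79610). They stand among 27444 protein-coding nuclear genes over which RBP binding could be listed, and 6 of the 9 are among the 10637 genes with a nuclear mRNA structure score. SOS3, HKT1 and NHX5 have no structure score. All plants were UBQ10:NTF/ACT2p:BirA transgenics in the Columbia-0 background, in which a biotin-tagged nuclear envelope protein lets nuclei be collected on streptavidin beads, so that both conditions carry both transgenes, the tagged protein under the broadly active UBQ10 promoter. The tissue was rosette leaves of 4-week-old plants, fixed with formaldehyde. Salt treatment began with 50 mM NaCl, went up in steps to 150 mM and stayed there for 10 days, and the control-treated plants received no NaCl. Each condition had 2 biological replicates of 4 libraries, 16 libraries in all.

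Plant cells lower sodium in the cytosol by sending it out of the cell, into the vacuole, or back out of the transpiration stream. In the SOS pathway a salt-triggered calcium signal is read by a calcium sensor, SOS3 mainly in roots and CBL10 mainly in shoots. The sensor brings the protein kinase SOS2 to a membrane, and the kinase activates the plasma membrane sodium/proton antiporter SOS1. HKT1 takes sodium out of the xylem sap, while NHX1 and NHX2 exchange sodium or potassium for protons at the vacuole and NHX5 and NHX6 do so in the endosomes.

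The readouts of protein interaction profile sequencing (PIP-seq) examined here are of 2 kinds. A protein protected site (PPS) is a stretch of RNA that gave more reads when proteins were left in place during RNase digestion than when they were removed first, called at a dsRNase (cutting paired RNA) or an ssRNase (cutting unpaired RNA). The enrichment score of a PPS has no unit and is used here only as a description. The structure score is the log ratio of double-stranded to single-stranded RNA coverage at a base, set so that the mean of the spliced transcript is 0, and a positive score means more pairing than the average of that transcript. The PPS lists are given per replicate, 4 lists with 26188 to 35513 PPSs each. The structure scores merge both replicates of a condition and so cannot be checked between replicates, and 2 lists against 2 cannot give a two-sided exact permutation p below 0.333, so no test was made. The tables give neither the depth of a library nor the amount of each RNA, so that more binding, more RNA of a gene in each nucleus and more nuclei that hold it cannot be told apart in a count of PPSs.

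The leaf markers fixed for the tissue check were present. Of 8 mesophyll markers 8 had a PPS and 7 had a structure score, whereas of 6 root markers none had a PPS and 1 had a structure score, which was SCR. Of 2 seed markers 1 had a PPS, and neither of 2 flower markers had one.

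The number of PPSs differed between the loci. The NHX genes carried most of the PPSs, SOS1, SOS2 and CBL10 carried a few each, and SOS3 and HKT1 had none in any of the 4 lists. The split does not follow the kind of gene. Per kb of locus, NHX6 had 1.85 PPSs in the 4 lists together, near the 1.73 of CBL10, and the antiporter gene SOS1 had 0.31. Over all 9 loci there were 97 PPSs at 57 distinct positions. Where PPSs of any list and strand that overlap are joined, they make 44 sites. At least 1 PPS of either strand lay over 6 of the 9 loci in the control-treated lists and over 6 of the 9 in the salt-treated lists, against 30.1% and 30.3% of all protein-coding genes. Among genes with a structure score the shares were 59.0% and 59.3%, against 5 of 6 members in either condition.

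**Figure D1:**
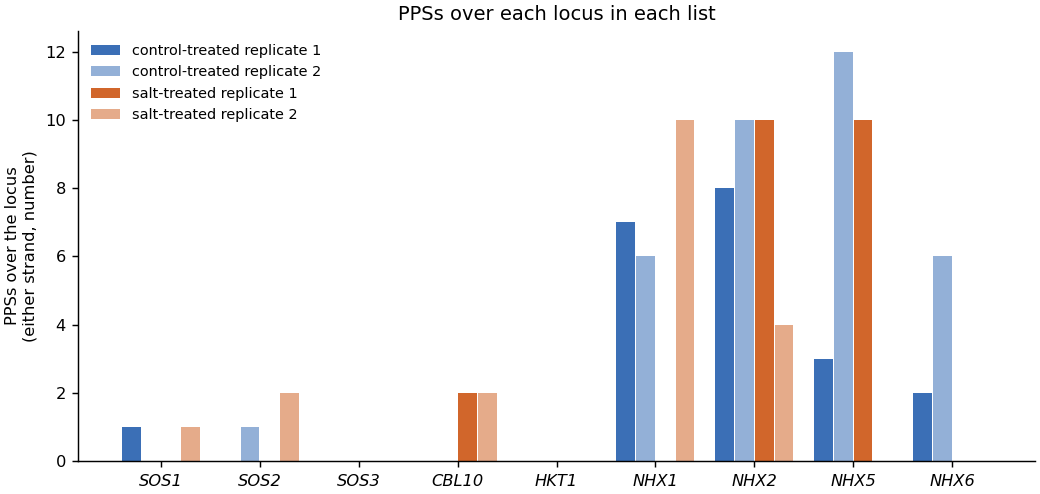
Number of PPSs of either strand over each of the 9 loci (vertical axis) in the 4 replicate lists (bars). NHX2 has between 4 and 10 PPSs in every list, NHX6 has them in the control-treated lists alone, CBL10 in the salt-treated lists alone, and SOS3 and HKT1 have none.

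The antiporters NHX2, NHX5 and NHX1 had the most. The vacuolar NHX1 carried 7 PPSs in control-treated replicate 1 and 6 in replicate 2, none in salt-treated replicate 1 and 10 in salt-treated replicate 2. The salt-treated lists thus lay on both sides of the control-treated ones, and the groups overlapped. NHX2 carried 8 and 10 in the control-treated and 10 and 4 in the salt-treated replicates, which also overlapped. Summed over the 4 lists, NHX2 had 32 PPSs, more than 96.6% of protein-coding genes, NHX5 had 25, more than 95.0%, and NHX1 had 23, more than 94.5%.

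The endosomal antiporters differed from each other. NHX5 carried 3 and 12 PPSs in the control-treated and 10 and 0 in the salt-treated replicates, so that replicates differed more than conditions. NHX6 carried 2 and 6 in the control-treated lists and 0 in both salt-treated lists, and its groups did not overlap. More PPSs in both control-treated lists than in either salt-treated list were found at this 1 of 9 loci, and at 4.91% of protein-coding genes. Only a gene with a PPS can show this, and 34.4% of protein-coding genes had one in any list, against 7 of the 9 loci. The 6 sites of NHX6 were all in coding exons, and only ssRNase calls were made there. Of these sites 4 rest on 1 list. The other 2 rest on calls with the same position, strand and score in both control-treated lists. For NHX6 the agreement of these lists therefore does not come from separate observations.

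Among the SOS pathway genes, CBL10 had the opposite pattern, with 0 PPSs in both control-treated lists and 2 in each salt-treated list, the only 1 of 9 loci of that kind, where 3.51% of protein-coding genes are. That share, too, is over genes of which most had no PPS in any list. SOS2 carried 0 and 1 PPSs in the control-treated lists and 0 and 2 in the salt-treated lists. SOS1 carried 1 and 0 in the control-treated lists and 0 and 1 in the salt-treated lists. The SOS2 and SOS1 counts overlapped between conditions, and with counts this small a list with none and a list with 1 are not distinguishable.

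Most of these PPSs are not separate observations. Of the 97, 72 (74.2%) have the same start, end and score as a PPS in another list, compared with 70.6% of the 122224 PPSs of all 4 lists. The strand of such twins often differs: of the 13 shared by the 2 control-treated lists all are on the same strand, but all 6 shared by the 2 salt-treated lists are on opposite strands. Only 62 of the 97 PPSs are listed on the strand of their gene, so both strands are counted here. The SOS1 PPS has score 8.14 in both of its lists, yet it is a dsRNase call on the opposite strand in control-treated replicate 1 and an ssRNase call on the strand of the gene in salt-treated replicate 2. The pair of CBL10 PPSs is on the strand of the gene in salt-treated replicate 1 and on the opposite one in replicate 2. For CBL10 the agreement of both salt-treated lists therefore rests on 1 set of positions and scores. Why positions and scores recur was not tested.

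Annotated genes on the other strand reach few of the sites. At NHX5 the lncRNA AT1G07967 lies on the other strand over 309 nt, and 1 PPS in each of control-treated replicates 1 and 2 and salt-treated replicate 1 touches its span. Each of these PPSs is listed on the strand of NHX5 and not on that of the lncRNA. None of the PPSs over CBL10 and NHX2 lies in the genes that overlap their ends.

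**Figure D2:**
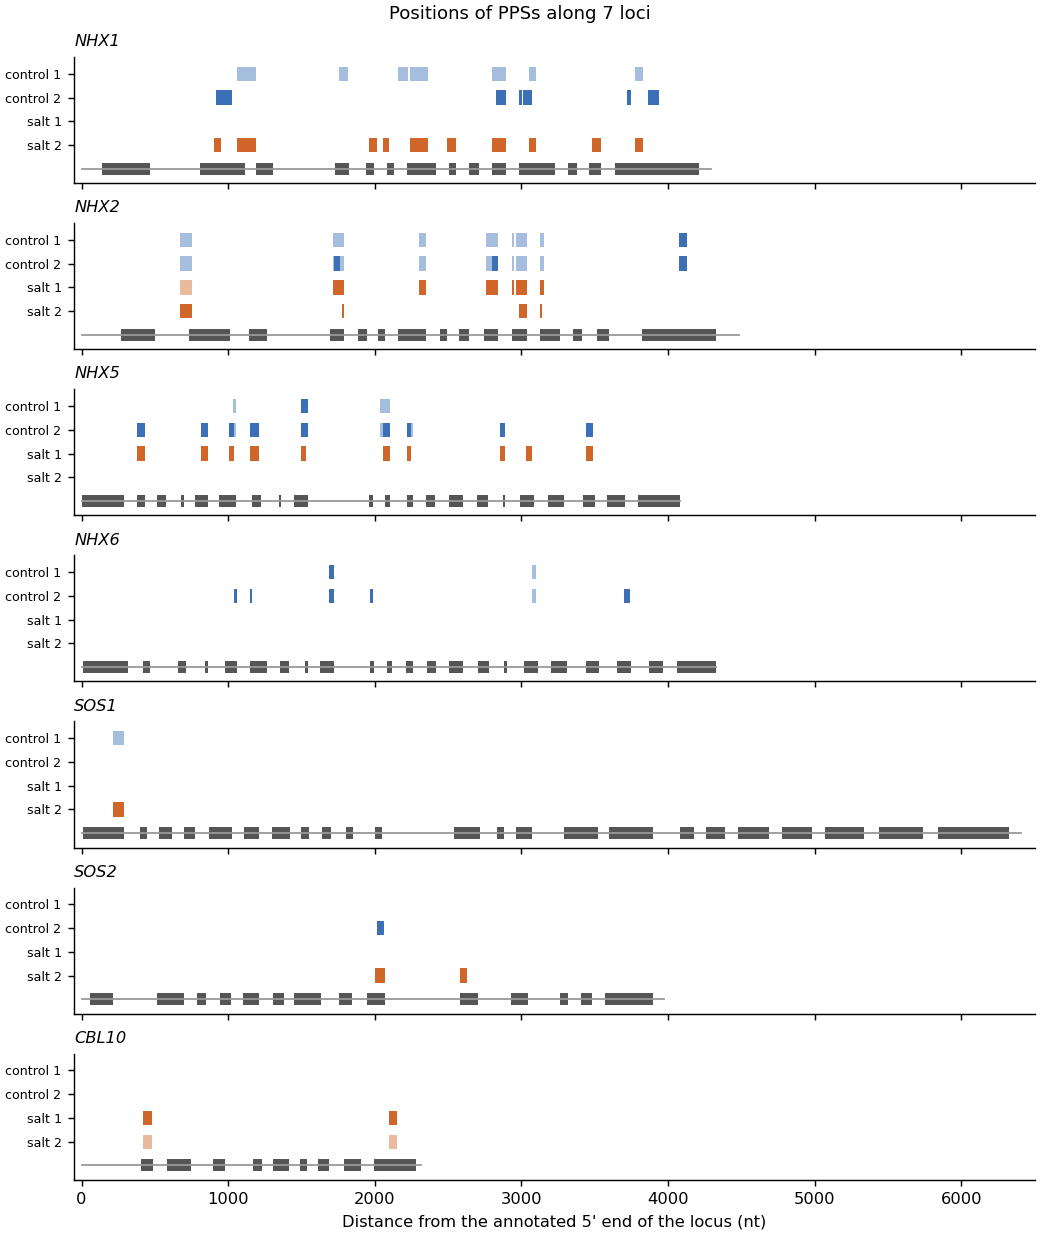
Positions of PPSs along the 7 loci that have any, as distance in nt from the annotated 5' end of the locus; grey boxes are exons of the isoform used, blue marks control-treated and orange salt-treated lists, and pale marks are PPSs on the strand opposite to the gene. The marks of NHX2 line up between lists, and those of NHX1 and NHX5 often do, while NHX6 has marks in the control-treated rows alone.

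Most sites touched coding sequence, which also makes up most of the spliced bases of these loci. The authors report enrichment in the CDS for high-confidence PPSs of all transcripts. The matching share over the sites of all genes was not computed here. Of the 44 sites 42 touch a CDS and 32 lie wholly in coding exons, 3 touch a 5' UTR and 1 touches a 3' UTR. None lies wholly in an intron, although 9 cross a border of exon and intron. Of the spliced bases of the 9 loci, 5.96% lay under a PPS in control-treated replicate 1 and 7.63% in replicate 2. After salt the shares were 4.78% and 5.46%. The salt-treated values were both below the control-treated ones, but this order turned when only PPSs on the strand of the gene were counted, with means of 3.30% and 4.73%. In the same order the values for all scored genes were 6.87%, 5.27%, 5.88% and 4.96%. The 2 sets are not matched, because the 9 loci include 3 without structure scores, and of these SOS3 and HKT1 had no PPS. Whether the members lay above or below the scored genes is therefore not read from these values.

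Of the 44 sites 24 have a PPS in both conditions, 12 in control-treated lists alone and 8 in salt-treated lists alone. Listing in both replicates of 1 condition and in neither of the other was rarer, and held for 3 sites bound in the control and 2 bound in salt. The first are 2 sites in NHX6 and 1 in NHX2, and the others are those of CBL10. Each of these sites rests on calls with the same position and score in its 2 lists, so the replicates are not separate observations there. The matching shares over the sites of all genes were not computed, so these counts have no baseline. The 4 sites found in all 4 lists are all in NHX2. The site of the highest score of the 9 loci, 22.74, lies in exon 10 of NHX2 at chr3:1394784-1394869 (TAIR10, the strand given being that of the gene, minus). The PPS of that score is on the opposite strand in both control-treated lists and on the strand of the gene in salt-treated replicate 1, and control-treated replicate 2 also has a PPS of 45 nt and score 8.14 there on the strand of the gene.

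The sites of the first part of the SOS pathway are given as sequence, because each gene has so few that they can be read whole. In SOS1 the single site lies in the first exon at chr2:457220-457295 (TAIR10, plus strand), from base 151 of the CDS, and all its bases are in both of its PPSs. In SOS2 the site in exon 9 at chr5:13636404-13636469 (plus strand) has a 48-nt PPS of score 7 in control-treated replicate 2, printed in capitals, within a 66-nt PPS of score 13.5 in salt-treated replicate 2. In CBL10 the 61-nt PPS at chr4:15924771-15924831 (plus strand) covers the start codon, which is capitalized in the 30 bases at chr4:15924808-15924837. All sequences run 5′ to 3′ on the strand of the gene and were read from the RefSeq copy of the genome.
SOS1 exon 1 site: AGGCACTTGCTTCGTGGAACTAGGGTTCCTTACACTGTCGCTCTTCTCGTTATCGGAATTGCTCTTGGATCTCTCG
SOS2 exon 9 site: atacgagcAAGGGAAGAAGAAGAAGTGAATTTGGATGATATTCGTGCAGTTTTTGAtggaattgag
CBL10 start codon: tttgaatgaactcATGgaacaagtttcctc

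The SOS2 site of 66 nt begins at base 811 of the CDS, and a further site of 47 nt in exon 10 begins at base 877, where exon 10 follows exon 9 in the mature mRNA. The 2 sites are thus next to each other in the spliced mRNA, and the second was listed in salt-treated replicate 2 alone with score 11.03. The other CBL10 site, of 54 nt and score 9.03, is in the 3' UTR at chr4:15926445-15926498. The CBL10 start codon site has score 13.51 and covers 76.9% of the annotated 5' UTR.

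Sites that cross from exon to intron are shown by 2 examples, because they reach into an annotated intron. In NHX1 a PPS of 129 nt at chr5:9554363-9554491 (plus strand) reaches from exon 2 through the whole intron into exon 3, with 57 exon bases and 72 intron bases. Its score is 9.48 in both of its lists, on the opposite strand in control-treated replicate 1 and on the strand of the gene in salt-treated replicate 2, and so on the strand printed here in 1 list only. In NHX5 a site of 71 nt at chr1:20295132-20295202 (minus strand) covers the end of an intron and 32 bases of exon 11, with PPSs in 3 lists. The PPSs of 71 nt, of score 15.21, are on the opposite strand in both control-treated lists, while those on the strand of the gene are 50 nt long, of score 11.38, in control-treated replicate 2 and salt-treated replicate 1. Capitals mark exon bases.
NHX1 exon 2 to exon 3 site: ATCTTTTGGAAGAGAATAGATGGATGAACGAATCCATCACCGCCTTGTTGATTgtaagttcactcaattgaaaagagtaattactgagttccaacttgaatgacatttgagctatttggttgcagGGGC
NHX5 exon 11 site: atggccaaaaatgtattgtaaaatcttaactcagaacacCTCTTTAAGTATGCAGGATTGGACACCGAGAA
NHX2 has a comparable site of 83 nt at chr3:1396871-1396953 with 27 bases of 5' UTR in exon 2 and 56 intron bases, and it was listed with score 8.35 in all 4 lists. It is on the strand of the gene in salt-treated replicate 2 alone. In both control-treated lists and in salt-treated replicate 1 it is on the opposite strand.

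The antiporters are pairs of related genes, so the positions of their sites were compared codon by codon after the predicted proteins were aligned. NHX1 and NHX2 align over 538 codons with 88.7% identical residues and 82.9% identical bases. Of the 285 NHX1 codons and 130 NHX2 codons that a PPS of any list and either strand touches, 102 are at aligned positions, which is 35.8% of the NHX1 and 78.5% of the NHX2 codons. PPSs touch 53.0% of the aligned codons of NHX1. NHX5 and NHX6 align over 513 codons with 81.1% identical residues, and 32 codons are touched in both, 21.8% of the NHX5 and 57.1% of the NHX6 codons, while PPSs touch 28.7% of the aligned codons of NHX5. Between the more distant NHX1 and NHX6, with 32.3% identical residues, the shared codons were 15, which is 26.8% of the NHX6 codons, while PPSs touch 52.1% of the aligned NHX1 codons.

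The shared NHX1 and NHX2 codons fall into 4 stretches, and 2 of them are printed because the NHX2 PPSs over them are among those with the highest scores. The longest, of 34 codons across the junction of exons 10 and 11, is 102 bases long with 91 identical bases and a longest identical run of 20. It was touched in 2 control-treated lists and 1 salt-treated list in each gene. The next, of 29 codons, has 73 of 87 identical bases and was touched in 2 control-treated lists of each gene, 1 salt-treated list of NHX1 and 2 of NHX2. The NHX1 PPSs over it have scores of only 7 and 6.91. Capitals mark bases that are the same in both genes, and the genomic spans include an intron where 2 exons are joined.
NHX1 exons 10 and 11 (chr5:9556112-9556302): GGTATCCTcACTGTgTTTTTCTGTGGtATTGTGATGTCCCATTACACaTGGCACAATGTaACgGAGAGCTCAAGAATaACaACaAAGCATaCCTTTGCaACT
NHX2 exons 10 and 11 (chr3:1394677-1394869): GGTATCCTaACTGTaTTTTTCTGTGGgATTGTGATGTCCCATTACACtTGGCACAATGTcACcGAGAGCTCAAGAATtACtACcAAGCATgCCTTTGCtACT
NHX1 exon 11 (chr5:9556312-9556398): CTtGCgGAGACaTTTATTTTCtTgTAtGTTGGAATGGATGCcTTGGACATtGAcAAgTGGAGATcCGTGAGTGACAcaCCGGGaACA
NHX2 exons 11 and 12 (chr3:1394490-1394667): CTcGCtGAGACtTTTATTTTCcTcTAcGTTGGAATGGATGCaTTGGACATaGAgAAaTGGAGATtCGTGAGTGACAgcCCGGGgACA
At NHX5 and NHX6 the shared codons fall into 3 stretches of 9 to 12 codons. The stretch of 11 codons in exon 17 has 23 of 33 identical bases, and it was touched in salt-treated replicate 1 alone in NHX5 and in both control-treated lists alone in NHX6. The NHX5 PPS is on the strand of the gene, whereas the NHX6 PPSs are on the strand opposite to the one printed.
NHX5 exon 17 (chr1:20294162-20294194): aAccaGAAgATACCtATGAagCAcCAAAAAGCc
NHX6 exon 17 (chr1:29954099-29954131): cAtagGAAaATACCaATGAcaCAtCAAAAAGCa
The part that reads matching both genes of a pair may have in these shared positions was not tested.

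The region means of the structure score differed between conditions mainly in the UTRs. The CDS makes up most of each spliced transcript, whose mean is set to 0, so the mean of a CDS can move little. A CDS mean near 0 therefore does not show that coding structure was unchanged, and single coding exons did differ by more than 1. In the 3' UTR the score was lower in salt-treated tissue by more than 1 for SOS1 and NHX1 and higher by more than 1 for SOS2 and CBL10, so the 6 scored genes did not move one way. In the CDS no member differed by 1, and the differences lay between -0.46 and 0.05. In the 5' UTR the score of SOS1 and SOS2 was higher in salt-treated tissue by more than 1.

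**Figure D3:**
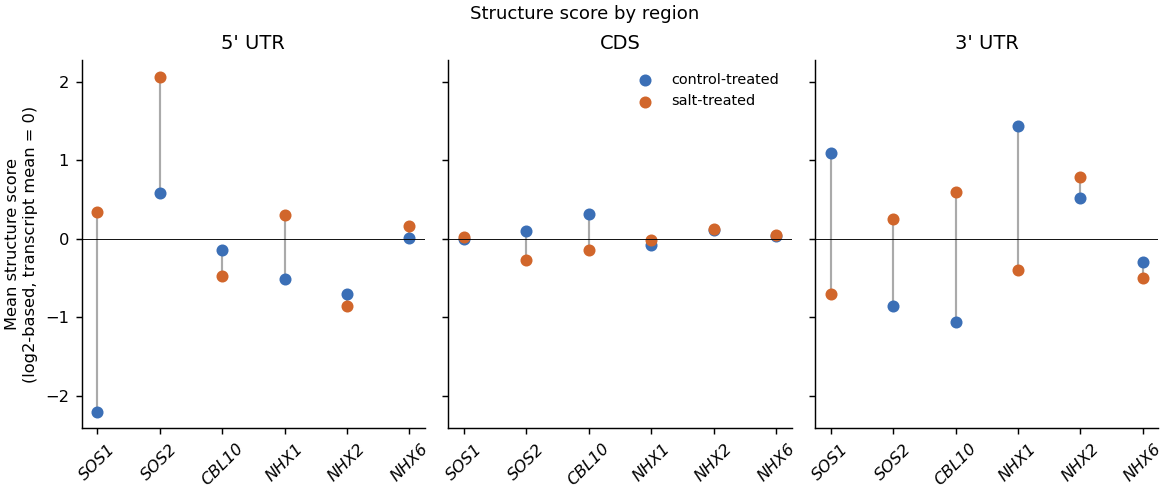
Mean structure score (vertical axis, log ratio with the transcript mean at 0) of the 5' UTR, CDS and 3' UTR of the 6 scored genes in control-treated (blue) and salt-treated (orange) tissue, joined by a grey line; each point is 1 value from merged replicates and has no error bar. SOS1 and NHX1 go down in the 3' UTR from 1.09 and 1.44 while SOS2 and CBL10 go up from -0.86 and -1.06, and all CDS points lie near 0.

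In the 3' UTR, the antiporter NHX1 went from a mean score of 1.44 in control-treated to -0.40 in salt-treated tissue, with an SD over bases of 0.85 and 1.68, and 239 and 219 scored bases. The difference of -1.84 was lower in 4.92% of the 9890 genes tested. SOS1 went from 1.09 to -0.70, a difference of -1.79, over 84 and 92 scored bases of 181. The calcium sensor CBL10 went the other way, from -1.06 to 0.59, a difference of 1.65 over 211 and 222 bases, and 95.7% of genes had a lower difference. The kinase gene SOS2 went from -0.86 over 235 scored bases to 0.25 over 122, a difference of 1.10. NHX2 (0.52 and 0.78) and NHX6 (-0.30 and -0.50) differed by less than 0.3. When only bases scored in both conditions were used, the difference was larger in SOS2, at 1.88, in NHX2, at 0.72, and in NHX6, at -0.59, and smaller in SOS1, at -1.03.

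These differences are to be read against wide differences in all genes. In the 3' UTR, 2 of 6 members were lower by at least 1 and 2 were higher by at least 1, where 16.8% and 10.7% of all genes were. At the smaller size of 0.1 the members were 3 and 3, where 50.4% of genes were lower and 37.0% higher. In all, 3 of 6 members had a lower 3' UTR score in salt, against 57.0% of genes. The median difference was 0.03 for the members and -0.11 for all genes.

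In the 5' UTR, SOS1 went from -2.20 to 0.34, on 42 scored bases of 60, and 97.2% of genes had a lower difference than its 2.54. SOS2 went from 0.58 to 2.06 over 124 and 137 scored bases. NHX1 went from -0.51 to 0.30 over the 443 and 403 scored bases of its longer 5' UTR. CBL10 (-0.15 and -0.47), NHX2 (-0.71 and -0.86) and NHX6 (0.01 and 0.17) differed by less than 0.4. At least 1 higher were 2 of 6 members against 17.7% of 9022 genes, and at least 1 lower were 0 against 17.1%. At 0.1, 4 were higher and 2 lower, where 44.4% of genes were higher and 44.4% lower.

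In the CDS, SOS2 and CBL10 stood out from the other 4. SOS2 went from 0.10 to -0.27 and CBL10 from 0.32 to -0.14, and only 3.10% and 1.81% of genes had lower differences. The other members differed by at most 0.05. At 0.1, 0 members were higher, against 29.3% of genes, and 2 were lower, against 21.0%. At 1, none was higher or lower, against 0.310% and 0.120% of 10003 genes. Because the score is set to the mean of the transcript, a UTR that goes up must be offset elsewhere in the same transcript: in CBL10 and SOS2 the CDS was lower where the 3' UTR was higher. NHX2 has a further scored isoform with a CDS of 1266 instead of 1641 bases, whose 3' UTR went from 0.46 to 0.54, and whose 5' UTR has only 14 and 20 scored bases.

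Windows of 50 nt on either side of the start and stop codons were examined in turn. In the 50 nt after the stop codon, NHX1 went from 1.47 to -2.46, and only 0.495% of 7481 genes had a lower difference than -3.93. In the 50 nt up to the stop it went the other way, from -0.79 to 1.23, and NHX6 likewise from -2.82 to 0.14. In the 50 nt before the start codon, SOS1 went from -2.12 to 0.34, with 95.1% of genes lower, and NHX1 from -0.71 to 0.59, with 83.0% lower. In the 50 nt from the start codon, NHX2 went from 1.40 to -0.93 and CBL10 from 0.79 to -0.55, whereas SOS1 went from 0.01 to 1.32. The median of all genes moved by less than 0.1 in each of these 4 windows.

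**Figure D4:**
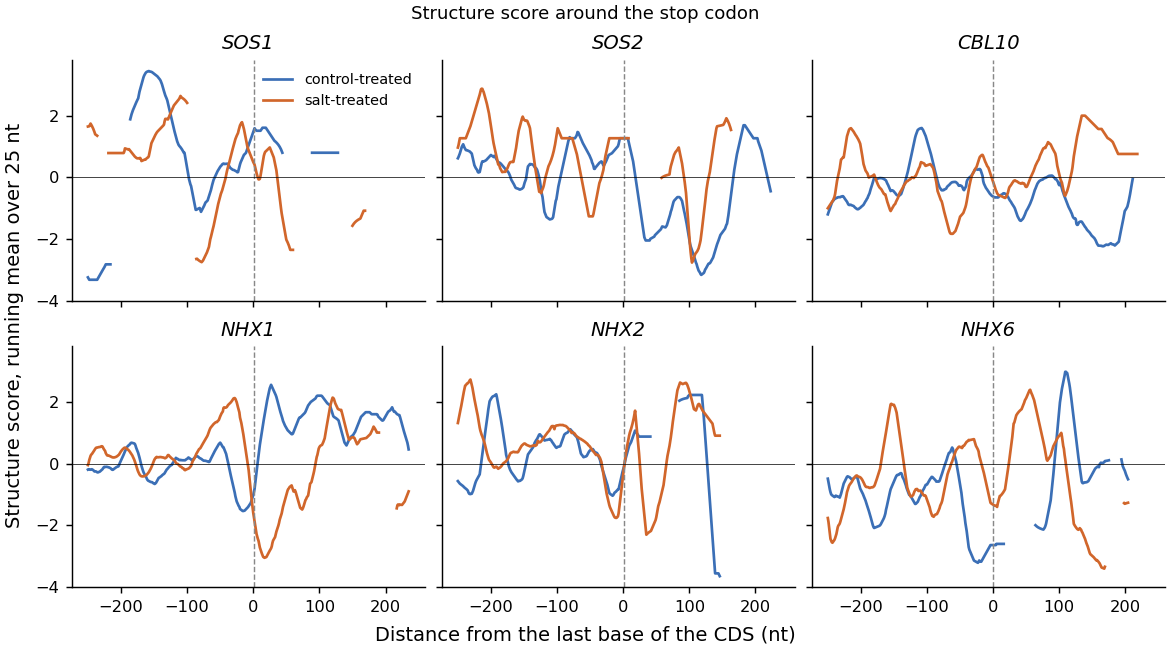
Structure score as a running mean over 25 nt (vertical axis) against distance in nt from the last base of the CDS (horizontal axis, dashed line at the end of the CDS) for the 6 scored genes in control-treated (blue) and salt-treated (orange) tissue; gaps are stretches with too few scored bases. In NHX1 the lines cross at the stop codon, and in CBL10 the salt-treated line is the higher near the end of the 3' UTR.

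The 30-nt windows with the largest differences are printed for the 3' UTRs of NHX1, CBL10 and SOS2, because in these genes the 3' UTR differed by more than 1 and holds the window with the largest fall or the largest rise of the transcript. In NHX1 the window begins at base 11 after the CDS, at chr5:9557277-9557306, and its mean score was 2.24 in the control and -2.78 in salt. In CBL10 the window at chr4:15926545-15926574 went from -2.21 to 1.57, and in SOS2 the window at chr5:13638188-13638217 went from -2.38 to 1.34. Capitals mark the bases whose own score was positive in the control and negative in salt for NHX1, and the reverse for CBL10 and SOS2.
NHX1 3' UTR window: gaAGAAAAGCTTTGATTTTTTTTGGTAGAA
CBL10 3' UTR window: AAGTAAAATTGTCAAGCACTTTGCTTTGTT
SOS2 3' UTR window: ggccATTGGTTTGGATCCCTCTGTTCTCTG
In CBL10 all 30 bases changed sign, in NHX1 28 and in SOS2 26. In CBL10 the running mean of the salt-treated score stayed at 1.57 from base 159 to base 164 after the CDS. This is also the salt-treated mean of the whole window. The salt-treated score was thus flat there, and the 30 sign changes of CBL10 are not separate observations. GC content was 26.7% in the NHX1 window, 30.0% in that of CBL10 and 53.3% in that of SOS2. Such windows are common: the largest fall of 30 nt in a gene had a median of -3.92 and the largest rise a median of 3.77 over all 10637 genes, and a larger fall than the -5.02 of NHX1 was found in 10.8% of genes.

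Single exons also differed. In NHX6, exon 13 went from -1.08 to 1.83, exon 14 from -0.62 to 0.99 and exon 15 from -1.11 to 0.86, while exon 11 went from 1.08 to -0.79, and the CDS as a whole differed by 0.01. Of its 22 exons 3 were higher and 5 lower by at least 1. In SOS2, exon 8 went from 0.77 to -2.01, and of its 14 exons 4 were higher and 4 lower by at least 1, and 1 of those higher, exon 1, is all 5' UTR. In NHX2 only exon 10, the exon of its highest-scoring site, was higher by 1, from -0.56 to 0.51. The share of exons of all genes that differ by at least 1 was not computed, so these counts have no baseline.

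The profile along the bases of a gene was only partly alike between conditions. As a description over the bases of each gene, which share reads and are not independent, the correlation of control-treated with salt-treated scores was 0.41 for SOS2, 0.32 for NHX2, 0.16 for NHX1, 0.11 for NHX6 and SOS1, and -0.07 for CBL10. The median over all genes was 0.20, and 5.12% of genes had a lower value than CBL10. Scores changed from one value to the next every 2.17 and 1.84 nt in NHX1 in control-treated and salt-treated tissue, and every 4.11 and 5.70 nt in SOS2. Across the aligned codons of NHX1 and NHX2 the correlation was 0.22 in the control and 0.03 in salt.

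The structure score of bases under a PPS was compared with that of the other spliced bases, with the PPSs of either list of the same condition. In control-treated tissue it was lower under PPSs in 4 of the 5 scored members with such bases, by -0.08 in SOS1, -0.16 in SOS2, -0.24 in NHX1 and -0.29 in NHX2, and NHX6 differed by 0.03. It was lower in 70.7% of all genes with enough such bases. In salt-treated tissue it was lower in 3 of 5, in SOS2 by -1.03, in NHX2 by -0.09 and in NHX1 by -0.03, and higher in SOS1 (0.33) and CBL10 (0.16), where 64.5% of all genes were lower. The shares of the members lie near those of all genes. The low SOS2 value after salt comes from its exon 10 site, where the mean score was -4.01 in the control and -2.80 in salt. The SOS1 site had -0.08 and 0.33, and the CBL10 start codon site -0.29 and -0.25.

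A list of 32 other genes of sodium handling, which holds further NHX, CBL, CIPK, CHX and KEA genes, proton pumps and regulators of the SOS genes, was examined in the same way, and 27 of them have structure scores. Of the 27, the 3' UTR was higher by at least 1 in 1 and lower in 4, with a median difference of -0.19, and the 5' UTR was higher in 2 and lower in 5. None differed by 1 in the CDS. The highest 3' UTR difference was that of CBL3, a calcium sensor at the vacuole membrane, from -2.23 to 0.48, and the lowest was that of its close relative CBL2, from 0.87 to -1.22. At least 1 PPS lay over 28 of the 32 genes in the 4 lists together, where 34.4% of protein-coding genes had one, and over 26 of the 27 with structure scores, where 66.7% of scored genes had one. The list was chosen by hand, and how well its genes are expressed was not compared.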

How the data were processed

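PIP-seq libraries were made by the authors from INTACT-purified leaf nuclei, and all 16 libraries were assigned to condition and replicate by their labels. Reads were trimmed with cutadapt (1.2.1) and mapped with TopHat2 (2.0.10) according to the submitters' processing notes, and TAIR10 was the genome. The deposited PPS lists, 1 per replicate, hold the enrichment score of each PPS, called by the authors with a modified CSAR package. The deposited structure tables hold another value, the standardized log ratio per base from merged replicates in which the transcript mean is subtracted; transcripts needed a minimum of reads in every library. The tables used give no depth per library, and the lncRNA tables were not used.

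The 9 loci and all lists were chosen with earlier results of these data known. PPSs that share at least 1 nt with the RefSeq span of a locus on either strand were counted with Python 3.11.15 and numpy 2.4.6. The isoform with the longest CDS stood for each gene, from RefSeq where no scores exist. A region needed 20 scored bases in each condition, and a window of 30 nt needed 80% of its bases scored in both. A difference of 0.1 was the size set first, and 1 was added after the spread over all genes was seen. Proteins were aligned with Biopython 1.88 and BLOSUM62. All 9 loci are named, other sodium genes only where their 3' UTR difference was the lowest or highest of the list, and antisense genes where a PPS lies in them. Exons, windows, sites and the aligned pairs described were chosen after their values were seen. The steps were tested on simulated data. Alternatives covered the strand, length, score and recurrence of PPSs, each replicate alone, and the isoform, bases, limits and centring of scores.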

Additional observations from a re-analysis of the deposited data

How the results depend on the processing

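No paired analysis was possible because the structure scores merge the replicates and the PPS counts come from no test. Within replicate number 1 there were 21 PPSs in the control and 22 in salt, and within number 2 there were 35 and 19. The mean number of PPSs per list was 28 in the control and 20.5 in salt. On the strand of the gene alone the order turned, with 13.5 against 17.5, and on the opposite strand alone the numbers were 14.5 and 3. With scores above the median of the list they were 11.5 and 11, and without calls that recur in another list 8 and 4.5. Leaving out 1 replicate gave 21 to 35 in the control and 19 to 22 in salt, and the order turned without replicate 2 (21 against 22). The percent of spliced bases under a PPS was 6.79 and 5.12. It was 3.30 and 4.73 on the strand of the gene, 3.93 and 0.607 on the opposite strand, 3.21 and 2.99 above the median score, and 1.97 and 1.09 without recurring calls; leaving out 1 replicate gave 5.96 to 7.63 and 4.78 to 5.46. PPSs of at least 30 nt kept the order. The median 5' UTR difference of 0.48 was 1.15 as a mean over isoforms and 0.59 as a median over bases. The median CDS difference of 0.0066 became -0.0098 over isoforms, -0.031 on bases scored in both conditions and -0.011 after centring. The median 3' UTR difference of 0.032 became -0.013 over isoforms, -0.28 as a median over bases and 0.14 after centring. No 3' UTR difference of a member changed sign in any of the 7 alternatives, but in the 5' UTR CBL10 did in 1 and NHX2 in 2. In the CDS the sign changed for SOS1 in 1, for NHX2 in 2 and for NHX6 in 2. At a size of 1, chosen after the data were seen, 2 instead of 4 members were higher in the 5' UTR and 0 instead of 2 lower in the CDS. The cause was not tested. The tables give no depth per library or locus, so a locus without a PPS cannot be told apart from one with too few reads.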
